A study of Mus musculus with 3 samples.

Results

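The regions described here are the stretches of the mouse genome enriched for H2A.Z WT whose midpoints lie inside introns and away from gene starts. A region was taken where its midpoint fell inside a protein-coding gene, in no annotated exon, and more than 2 kb from every start of a protein-coding transcript (mm9 assembly, GENCODE vM1 gene models). Of 78359 H2A.Z WT regions, 18577 met this rule, or 23.7%. The others were 18957 regions within 2 kb of a start, 7717 exonic regions and 33108 distal intergenic regions. H2A.Z WT is a wild-type H2A.Z fused to yellow fluorescent protein (YFP), and H2A.Z AP3 is the same fusion with the acidic patch substitutions G92N, D97N and S98K. Both were expressed from a doxycycline-inducible lentiviral transgene with a CMV promoter under rtTA control in KH2 embryonic stem cells (ESCs), sorted for YFP, in which a hairpin against the 3′ untranslated region depleted endogenous H2A.Z. Chromatin bearing either fusion was recovered through its tag, by an antibody to GFP. The third library profiled H3K27me3, the trimethylated form of lysine 27 on histone H3, in cells labelled wild type. V6.5, a male hybrid of 129SvJae and C57BL/6, is named as the strain for all 3 samples, although according to the treatment text the transgenes were put into KH2 cells.

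There was 1 library per group, each given as a list of enriched regions with no read counts. No test between conditions is therefore possible, and the depth of each library is unknown. All intervals below are 95% intervals that cover counting error only and treat neighbouring regions as independent, which they are not. The lists hold no expression values, so the ESC label could not be checked against marker genes.

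H2A.Z replaces H2A in a share of nucleosomes and is best known at the nucleosomes that flank transcription starts and at enhancers. Its acidic patch is a negatively charged surface of the nucleosome that other proteins contact. H3K27me3 is deposited by Polycomb repressive complex 2, and in ESCs it covers the CpG-rich promoters of many silent developmental genes together with H2A.Z. Introns hold many of the distal regulatory elements of the genome.

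Stretches of 30 bases from the longest intronic regions show the sequence found there. Those printed hold the GC box GGGCGG, a binding site of Sp and Klf factors, or the E box CACGTG, a binding site of Myc and related factors, the most frequent of the motifs whose share in the intronic regions exceeded that in introns of the same GC content by over 1.2 times. Capitals mark the motif, and all 6 stretches lie in introns of mm9.
Cacna1h GC box, chr17:25519347-25519376, plus strand: caagcagccaggGGGCGGacagctgagaca
Kif26a GC box, chr12:113413494-113413523, minus strand: cacagaacataaGGGCGGcttctggggagc
Fam65c GC box, chr2:167817932-167817961, plus strand: cacagacactgaGGGCGGggggcacagaca
Lfng GC box, chr5:141087978-141088007, minus strand: cggggagtggtgGGGCGGggcatgaagcaa
Nfix E box, chr8:87266325-87266354, plus strand: cacagggaaccgCACGTGtactgagtcaga
Pde4c E box, chr8:73268202-73268231, plus strand: gaagccccgctcCACGTGacgtcataaaat
The Lfng region held 7 matches to the GC box, the Cacna1h and Fam65c regions 5 each and the Kif26a region 3. The Nfix and Pde4c regions held 2 E boxes each. A match describes letters and does not show that a factor was bound.

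The intronic regions were short and mostly covered by H2A.Z WT alone. Their median length was 200 bp, with quartiles at 125 and 375 bp, against 400 bp for regions near starts and 300 bp for exonic regions. Distal intergenic regions had the same median of 200 bp, with quartiles at 125 and 350 bp. Together they covered 5.78 Mb, and 858 of them were 1 kb or longer. Of the 18577 regions, 16479 (88.7%) overlapped neither H2A.Z AP3 nor H3K27me3, 1556 overlapped H2A.Z AP3 alone, 444 overlapped H3K27me3 alone and 98 overlapped both. Regions with neither made up 81.1% of all H2A.Z WT regions and 86.8% of distal intergenic ones. A region of the stricter 1e-12 list lay in 69.9% of them (69.2 to 70.5), against 75.7% of all H2A.Z WT regions. By midpoint every member is intronic, but 2741 of them (14.8%) reached into an annotated exon, as did 447 of the 858 of 1 kb or more. The 15836 that stayed within introns were overlapped by H2A.Z AP3 in 7.82% of cases and by H3K27me3 in 2.36%. Just outside the distance limit, the 508 otherwise eligible regions at 1500 to 2000 bp from a start had a median length of 250 bp and were overlapped by H3K27me3 in 21.1% of cases. Just inside, the 399 regions at 2000 to 2500 bp had a median of 225 bp and a share of 17.3%.

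The GC content of intronic regions spanned a narrow range. Windows of 250 bp at their midpoints had a GC content of 56.2% ± 3.39 (SD over 18577 regions), while windows tiled over all introns that met the same position rule averaged about 42.3%. Introns under 40% GC made up 36.8% of the eligible windows and held the midpoint of no region. Per 1000 windows there were 0.531 regions at 45 to 50% GC, 15.6 at 50 to 55%, 90 at 55 to 60% and 126 at 60 to 65%, then 70.5 at 65% or more. Distal intergenic regions had nearly the same composition (55.9% ± 3.63), and regions near starts were richer (61.6% ± 6.2). The input library was not analysed here, so the part of library composition in these values was not tested.

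**Figure D1:**
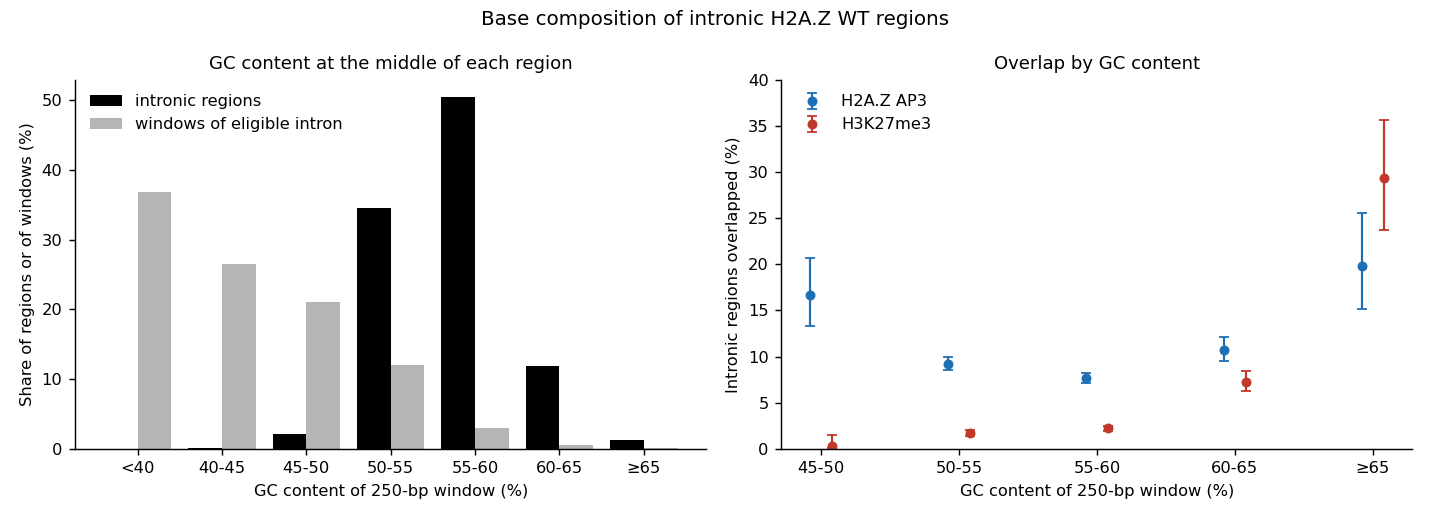
Left, share in percent of the 18577 intronic H2A.Z WT regions (black) and of 250-bp windows of eligible intron (grey) in each class of GC content. Right, share of intronic regions overlapped by H2A.Z AP3 (blue) and H3K27me3 (red) with 95% Wilson intervals, for classes with more than 13 regions. No region lies under 40% GC, and the H3K27me3 share reaches 29.3% at 65% GC or more.

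CpG content set a small group of regions apart. A region was called CpG rich where its GC content was at least 50% and its observed number of CpG dinucleotides at least 0.6 of that expected from its C and G. This held for 1141 intronic regions (6.14%, 5.81 to 6.5), against 50.8% of regions near starts, 7.64% of distal intergenic regions and 18.7% of all H2A.Z WT regions. In 250-bp windows the share was 4.58% at the intronic regions and 0.292% in eligible introns without H2A.Z WT. The rule itself asks for 50% GC, and these 2 shares were not weighted to GC content, which was higher at the regions. H3K27me3 overlapped 158 of the CpG-rich regions (13.8%, 12 to 16) and 384 of the 17436 others (2.2%, 1.99 to 2.43). Within deciles of region length the odds ratio was 9.82 (7.96 to 12.1). For H2A.Z AP3 the shares were 8.94% and 8.9%, and the odds ratio within length deciles was 1.35 (1.08 to 1.69). The CpG-rich regions were shorter, with a median of 150 bp against 200 bp. At 65% GC or more, H3K27me3 overlapped 29.3% (23.7 to 35.6) and H2A.Z AP3 19.8% (15.1 to 25.6) of 222 regions, whose median length was 500 bp. At 45 to 50% GC, H3K27me3 overlapped 0.26% and H2A.Z AP3 16.7% (13.3 to 20.7) of 384 regions with a median of 162 bp. The share with H2A.Z AP3 was thus high at both ends of the range, against 7.69% at 55 to 60% GC, and that with H3K27me3 at the upper end.

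Short motifs were counted on either strand of the 250-bp windows. The GC box GGGCGG was found in 12.4% of the intronic regions and in 2.21% of windows without H2A.Z WT, and the latter share was 9.8% once those windows were weighted to the GC content of the regions. For the E box CACGTG the shares were 7.15%, 2.71% and, weighted, 4.38%. The CTCF core AGGNGGC was in 25.8% of the regions and in 24.5% of weighted windows, and the Klf site GGGTGTGG in 3.69% and 4.12%, so that these shares lay close together. The AP-1 site TGANTCA was in 6.94% of regions, 7.48% of windows and 5.64% of weighted windows. The octamer ATTTGCAT of Oct4 and related factors was in 0.576% of regions against 1.9% of windows, but in 0.446% once weighted. The Esrrb site TCAAGGTCA was in 0.425% of regions and 0.554% of weighted windows. The Nrf1 site GCGCATGCG was in 47 regions (0.253%) and in 0.0889% of weighted windows. The GC box and the CTCF core can share bases, so a stretch can be counted for both. Regions with a GC box were overlapped by H3K27me3 in 5.59% of cases and those without in 2.54%, at median lengths of 250 and 200 bp.

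Counted by distance to the nearest start of any protein-coding gene, intronic H2A.Z WT thinned away from starts, but not once GC content was taken into account. The median distance to the nearest protein-coding start was 22.1 kb, with quartiles at 9.39 and 52 kb. Per Mb of eligible intron there were 29.1 regions at 2 to 5 kb (27.9 to 30.3), 27.7 at 5 to 10 kb, 26.7 at 10 to 20 kb, 23.3 at 20 to 50 kb, 19.5 at 50 to 100 kb and 11.3 beyond 100 kb (10.8 to 11.8). The density at 2 to 10 kb was 1.89 times that beyond 50 kb (1.82 to 1.97). The eligible introns near starts were also richer in GC. The eligible windows were also weighted to GC content, an alternative added after the values were seen. The ratio of regions found to the weighted number was then 0.896 at 2 to 5 kb, 1.12 at 50 to 100 kb and 1.05 beyond 100 kb. The fold turned to 0.825 (0.793 to 0.858). Among introns of like GC content the regions were thus not denser near starts than beyond 50 kb.

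First introns held 5343 regions, 28.8% of the members in 24.4% of the eligible bases, a fold of 1.18 (1.15 to 1.21). The excess was small near starts, with 29.4 regions per Mb in first introns and 28.6 in later ones at 2 to 5 kb, and large beyond 100 kb, with 18.5 against 10.1. With each gene divided into 10 equal parts, the density lay between 19.6 regions per Mb in the part at the 5′ end and 25.9 in that at the 3′ end, and the share with H3K27me3 went from 7.51% to 1.44%. The 2 kb rule removes much of the 5′ end, which the eligible bases take into account. Neither the first-intron fold nor these densities were weighted to GC content.

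Overlap with H3K27me3 fell steeply with distance from a start, while overlap with H2A.Z AP3 was level up to 20 kb. The share of intronic regions overlapped by H3K27me3 was 10.9% at 2 to 5 kb (9.68 to 12.3), 3.79% at 5 to 10 kb, 1.85% at 10 to 20 kb and 0.929% beyond 100 kb (0.595 to 1.45). The share overlapped by H2A.Z AP3 was 9.95% in both classes up to 10 kb, 10% at 10 to 20 kb and 5.91% beyond 100 kb (4.97 to 7.02). The median region length was 225 bp in the classes up to 20 kb and 175 bp beyond 100 kb. These shares by distance were not taken within length deciles. In first introns the odds of H3K27me3 within length deciles were 1.61 times those in later introns (1.34 to 1.93), and for H2A.Z AP3 the ratio was 1.04 (0.927 to 1.17). These ratios take no account of distance. In first and later introns H3K27me3 overlapped 11.9% and 9.71% at 2 to 5 kb, and 3.78% and 3.47% at 5 to 10 kb. The shares were 2.06% and 1.7% at 10 to 20 kb, and 1.17% and 1.64% at 20 to 50 kb. At 50 to 100 kb they were 1.25% and 1.01%, and beyond 100 kb 0.737% and 0.84%. Near a start of some other annotated transcript, such as a noncoding RNA, lay 1346 regions (7.25%, against 4.53% of the eligible bases), and these were overlapped by H3K27me3 in 7.95% of cases and by H2A.Z AP3 in 11.6%.

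**Figure D2:**
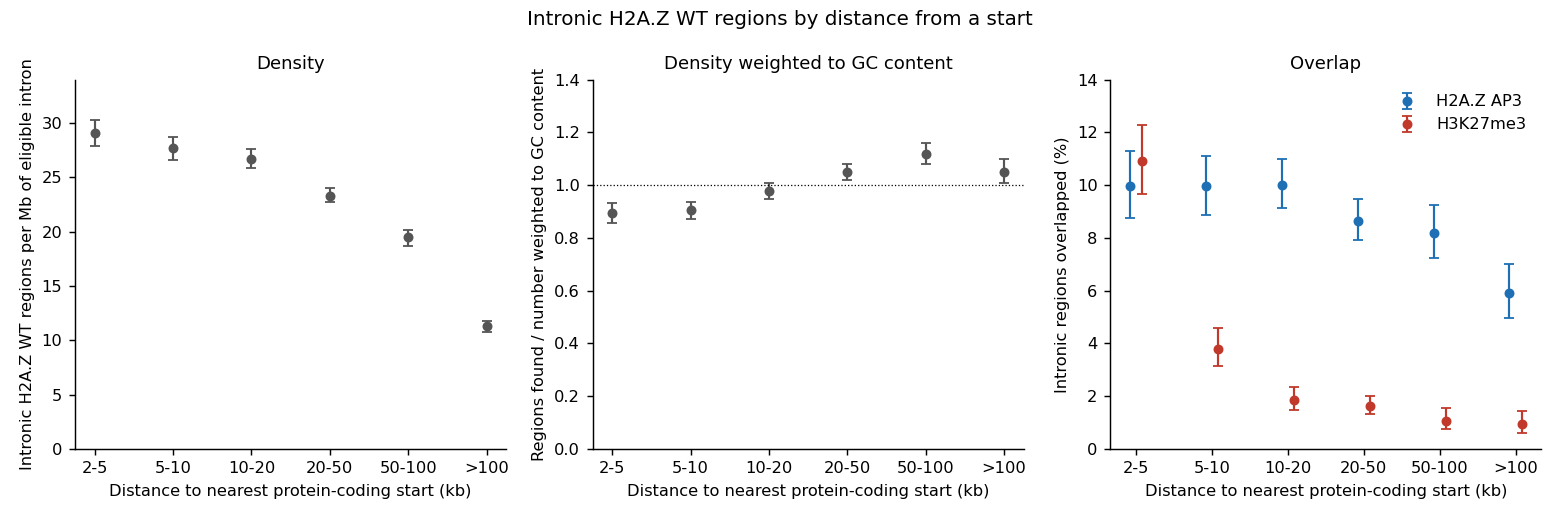
Intronic H2A.Z WT regions by distance in kb to the nearest protein-coding start: regions per Mb of eligible intron (left), ratio of regions found to the number weighted to GC content (middle, dotted line at 1) and percent overlapped by H2A.Z AP3 and H3K27me3 (right). Bars are 95% intervals. The density falls from 29.1 to 11.3 per Mb, and the H3K27me3 share falls from 10.9% to 0.929%. The weighted ratio is 0.896 at 2 to 5 kb, 1.12 at 50 to 100 kb and 1.05 beyond 100 kb.

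H2A.Z AP3 was found at a smaller share of intronic regions than of the other classes. It overlapped 1654 of 18577 regions by at least 1 bp, or 8.9% (8.5 to 9.32), against 12.9% of all H2A.Z WT regions, 21.4% near starts, 12.8% in exons and 10.4% in distal intergenic sequence. Longer regions were overlapped more often, from 0.587% of those of 25 bp to 29% of those of 800 bp or more, and the overlapped regions had a median length of 425 bp against 200 bp for the rest. Within deciles of length, the odds of H2A.Z AP3 at intronic regions were 0.787 times those at distal intergenic regions (0.738 to 0.839), 0.915 times those at exonic regions (0.837 to 1) and 0.579 times those near starts (0.542 to 0.618). The intergenic comparison kept an odds ratio of 0.754 (0.706 to 0.805) within strata of length and chromosome, although with no strata the ratio was above 1 on 7 of 20 chromosomes. Where H2A.Z AP3 overlapped, it covered a median of 150 bp, or 40% of the H2A.Z WT region, and 142 regions were wholly covered. From the other side, 1699 of 2508 intronic H2A.Z AP3 regions (67.7%) overlapped H2A.Z WT.

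H3K27me3 was likewise rarer in introns. It overlapped 542 intronic regions, or 2.92% (2.69 to 3.17), against 8.08% of all H2A.Z WT regions, 20.9% near starts, 8.55% in exons and 3.5% in distal intergenic sequence. Within length deciles the odds ratio was 0.76 against distal intergenic regions (0.684 to 0.844), 0.421 against exonic regions (0.373 to 0.476) and 0.162 against regions near starts (0.148 to 0.179). A region overlapped by H3K27me3 was covered over a median of 225 bp, or 81.6% of its length, and 229 of the 542 were wholly covered. Of 2806 intronic H3K27me3 regions, 631 (22.5%) overlapped H2A.Z WT.

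At 98 intronic regions (0.528%) both H2A.Z AP3 and H3K27me3 were found, against 2.16% of all H2A.Z WT regions. With no account of length, the odds of H2A.Z AP3 were 2.34 times higher at regions with H3K27me3 (1.87 to 2.93) and the ratio was above 1 on 20 of 20 chromosomes. Both were more frequent at long regions, and the ratio within length deciles was 1.22 (0.959 to 1.55), an interval that holds 1. It moved to 0.743 (0.423 to 1.3) when each mark had to cover at least 50% of the region, and to 1.34 (1.02 to 1.76) without chromosomes 6 and 8.

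**Figure D3:**
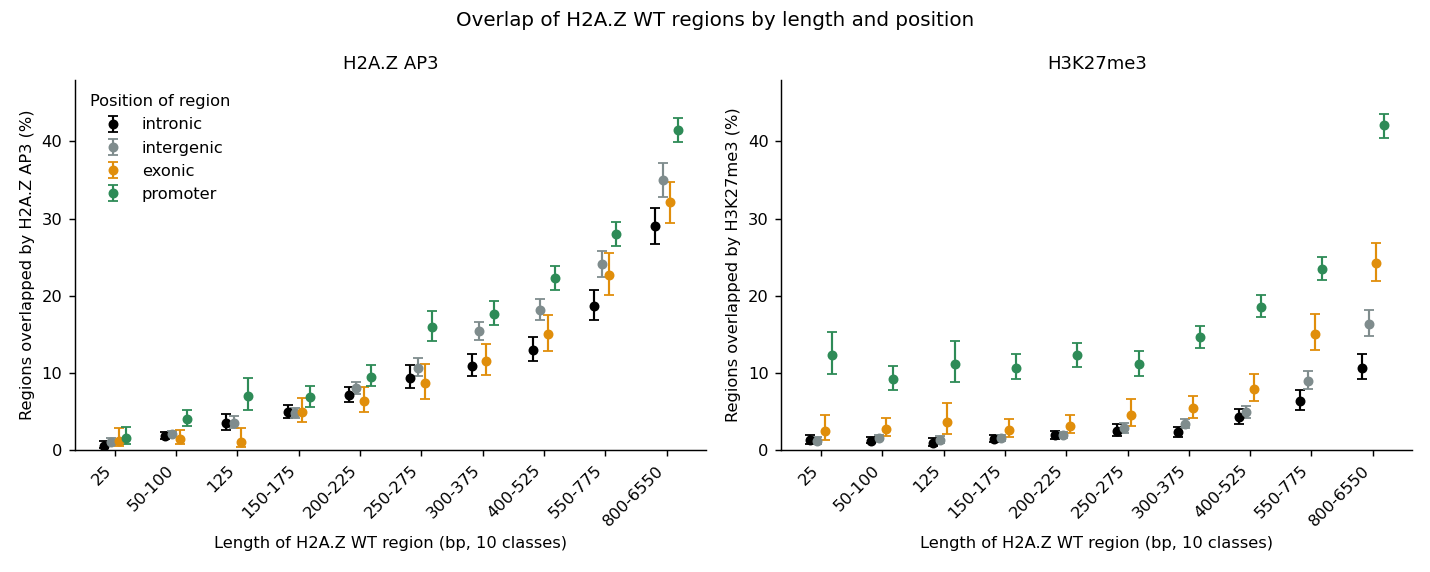
Percent of H2A.Z WT regions overlapped by H2A.Z AP3 (left) and H3K27me3 (right) in 10 classes of region length in bp, by position of the region, with 95% Wilson intervals. Both shares rise with length, intronic regions (black) reach 29% and 10.7% in the longest class, and regions near starts (green) lie above them.

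The longest intronic region, of 6550 bp (chr17:25516351-25522900), lay across intron 25 of the 34 introns of Cacna1h, which encodes the pore of a T-type calcium channel. Its midpoint lay 2.03 kb from the nearest protein-coding start, so a region of this length ran over that start. H2A.Z AP3 covered 1700 bp of the Cacna1h region in 2 regions, and H3K27me3 did not overlap it. The other regions among the 5 longest were in Kif26a (4225 bp, chr12:113411051-113415275), a kinesin family gene, in the adenylate cyclase gene Adcy7 (3875 bp, chr8:90839226-90843100), in the corepressor gene Cbfa2t3 (3825 bp, chr8:125164551-125168375) and in Tnxb (3325 bp, chr17:34820201-34823525), which encodes the matrix protein tenascin X. H2A.Z AP3 covered 100 bp of the Kif26a region, 850 bp of that in Adcy7 and 300 bp of that in Cbfa2t3, and did not overlap that in Tnxb. None of these 5 regions overlapped H3K27me3, although the promoters of all 5 genes carried both H2A.Z WT and H3K27me3.

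Regions with both marks were led by 3 genes. In Pde4c, a cAMP phosphodiesterase gene, the region of 2775 bp (chr8:73266601-73269375) was covered over 150 bp by H2A.Z AP3 and over 175 bp by H3K27me3. In Nfix, which encodes a nuclear factor I transcription factor, the region of 2175 bp (chr8:87264876-87267050) lay in intron 2, 19.1 kb from a start, and was covered over 975 bp by H2A.Z AP3 and over 825 bp by H3K27me3. In Vsig8, an immunoglobulin-domain gene, the region of 1900 bp (chr1:174491976-174493875) was covered over 275 bp and 1000 bp. The Nfix region was thus the one of these in which both covered a large stretch.

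The longest regions with H2A.Z AP3 alone, in genes not yet named, were in Flnc (3150 bp, chr6:29401351-29404500), which encodes the muscle actin cross-linker filamin C, in 3110056O03Rik (3100 bp, chr10:80325601-80328700) and in Fam65c (2800 bp, chr2:167816551-167819350). H2A.Z AP3 covered 425, 175 and 1175 bp of them. The longest with H3K27me3 alone were in Lfng (2450 bp, chr5:141086576-141089025), whose product modifies Notch receptors, in 1200009I06Rik (2400 bp, chr12:112667401-112669800) and in Slc4a1 (2350 bp, chr11:102217476-102219825), the anion exchanger of red blood cells. H3K27me3 covered 325, 550 and 400 bp of these. In both sets the mark took up a minor part of the H2A.Z WT region.

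Intronic regions were spread over many genes, and a small set of hosts held a large share of them. Of 17592 protein-coding genes with eligible bases, 4827 hosted at least 1 region, or 27.4%. Of these hosts, 2014 held 1 region, and 389 with 10 or more held 7527 regions (40.5%). Hosts were long, with a median of 49.9 kb against 17.8 kb for genes without a region. H2A.Z WT was present within 2 kb of a start in 83.9% of hosts and in 62.1% of the other genes.

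The marks at a gene's own promoter, meaning within 2 kb of any of its protein-coding starts, went along with its intronic regions. Genes with no H2A.Z WT at the promoter had 11.1 regions per Mb of eligible intron, genes with H2A.Z WT but no H3K27me3 had 20, and genes with both had 28.8. The same order held in each of 4 classes of gene length, for example 15.6, 32.7 and 77.9 per Mb in genes of 10 to 30 kb and 7.76, 16.5 and 21.5 in genes over 100 kb. Weighted to GC content, the ratios of regions found to the weighted number were 0.695 (0.663 to 0.727), 0.857 (0.838 to 0.877) and 1.27 (1.24 to 1.29), in the same order. Without chromosomes 6 and 8, described at the end, the densities were 10.5, 15.1 and 26.2 per Mb. The weighted ratios were then 0.646, 0.667 and 1.14. With both corrections the classes without H3K27me3 at the promoter thus lay close together, and the class with both marks stayed highest. H3K27me3 itself overlapped 4.73% of the regions in genes with both marks at the promoter (4.32 to 5.17) and 1.01% of those in genes with H2A.Z WT alone (0.801 to 1.26). More than 10 kb from a start these shares were 1.99% and 0.836%. The odds ratio of H3K27me3 by H3K27me3 at the host's promoter was 5.45 within length deciles (4.31 to 6.9) and 5.03 within length and chromosome (3.95 to 6.41). H2A.Z AP3 overlapped 10% of regions in genes with H2A.Z AP3 at the promoter and 8.04% in the others, an odds ratio of 1.18 within length deciles (1.07 to 1.32). Within strata of length and chromosome, added after the values were seen, it was 1.03 (0.915 to 1.15), and without chromosomes 6 and 8 it was 1.06 (0.923 to 1.21), so a link between promoter and intron was not seen for H2A.Z AP3 within chromosomes.

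**Figure D4:**
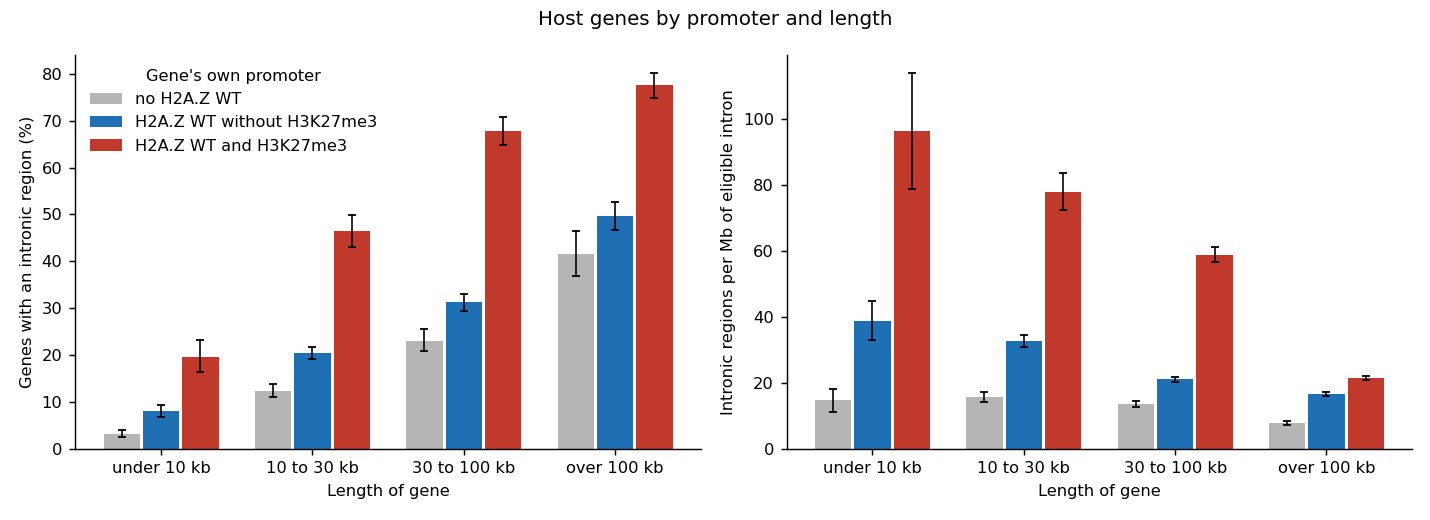
Percent of genes with an intronic H2A.Z WT region (left) and regions per Mb of eligible intron (right) in 4 classes of gene length, by the state of the gene's own promoter. Bars carry 95% intervals from counting. In every length class genes with H2A.Z WT and H3K27me3 at the promoter are highest, reaching 77.6% of genes over 100 kb.

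The annotated gene with most regions, Gm20388, is a model of 4.43 Mb on chromosome 8 that spans 72 other protein-coding genes. It held 778 regions (4.19% of all), 117 of them with H2A.Z AP3. Where genes overlap a region was given to the shortest, so these 778 lay in none of the 72 and rest on this gene model alone. Without it the share with H2A.Z AP3 was 8.64% and that with H3K27me3 2.99%. Next came Cacna1c with 67 regions, the pore of an L-type calcium channel, then Ifltd1 with 65, the neuronal splicing factor gene Rbfox3 with 64 and the cadherin gene Cdh13 with 63. H2A.Z AP3 overlapped 3, 9, 0 and 3 of these, and H3K27me3 overlapped 3, 0, 1 and 0.

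By density, among genes with at least 10 kb of eligible intron, Flnc led with 12 regions, or 67.4 per 100 kb, and H2A.Z AP3 overlapped 6 of them. These had a median length of 900 bp over the 12, and H2A.Z AP3 overlapped 29% of all intronic regions of 800 bp or more. A630091E08Rik followed with 64.7 per 100 kb, Ccdc102a with 57.3 and Mgll, a lipase gene of endocannabinoid breakdown, with 56.4. Of the 55 regions in Mgll, 14 carried H2A.Z AP3 and none H3K27me3, where the shares over chromosome 6 were 13.1% and 1.62%. Nkx2-2, a homeodomain regulator of ventral neural tube and pancreatic islet fate, had 6 regions (56.2 per 100 kb), and all 6 carried H3K27me3 and none H2A.Z AP3. All lay within 10 kb of a start, where H3K27me3 overlap was more frequent. Of these 10 hosts, 7 lie on chromosome 6 or 8. Among hosts looked up after their values were seen, Nfix had the most regions with H3K27me3, 12 of 31, and 8 of these were more than 10 kb from a start.

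Gene groups differed in how many intronic regions they held. The groups were drawn up with earlier results of these data known, so they describe and do not support. Over all genes with eligible bases there were 2.17 regions per 100 kb and 27.4% of genes were hosts. Of all genes over 100 kb, 59.4% were hosts, and 77.6% of those with H2A.Z WT and H3K27me3 at the promoter. Median gene length was 225 kb for developmental transcription factors and 113 kb for calcium channel subunits. It was 1211 kb for long neuronal genes and 23.3 kb over all genes. The host counts of the groups were not compared within classes of gene length. Developmental transcription factors had 22 hosts of 25 genes and 272 regions, or 4.21 per 100 kb, led by Sox5 (55 regions), Prdm16 (39) and Nfix (31). H3K27me3 overlapped 24 of these 272 regions (8.82%, against 2.92% of all intronic regions), of which 12 were in Nfix. In all genes with H2A.Z WT and H3K27me3 at the promoter the share was 4.73%. Zeb2, Zfpm2 and Gli3 had no region. Calcium channel subunits had 19 hosts of 24 and 240 regions, or 5.54 per 100 kb, led by Cacna1c (67), Cacna1d (35) and Cacna2d4 (24), and H3K27me3 overlapped 4 of them (1.67%). Cacna2d1 and Cacng5 had none. Very long neuronal adhesion and synapse genes had 20 hosts of 25 but only 75 regions in 32758 kb, or 0.229 per 100 kb. Csmd1 (12) and Cntnap2 (8) led, and Dmd, Nlgn1, Lsamp, Pcdh15 and Cntnap5a had none. Dmd lies on the X chromosome, which held 37 intronic regions in all.

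Of 19 pluripotency and LIF pathway genes with eligible bases, 3 were hosts: the Wnt pathway repressor gene Tcf7l1 with 10 regions and the nuclear receptor genes Esrrb with 7 and Nr5a2 with 3. These came to 3.32 regions per 100 kb. Tcf7l1 lies on chromosome 6. Without chromosomes 6 and 8 the list had 2 hosts of 16 genes and 2.25 regions per 100 kb. The ratio weighted to GC content was then 0.535. Stat3, Lifr and Il6st, all of at least 30 kb, had none. Chromatin regulators had 8 hosts of 25 and 22 regions, or 1.6 per 100 kb, led by the DNA methyltransferase gene Dnmt3a (9), the Polycomb gene Cbx7 (4) and, with 2 each, the demethylase genes Kdm2b and Kdm6b and Phf19. The 22 regions are too few to read the share with H3K27me3, which was 0 of 22 against 2.92% of all intronic regions. The 13 regulators of at least 30 kb with no region were Ezh2, Suz12, Jarid2, Mtf2, Rnf2, Kdm6a, Dnmt1, Dnmt3b, Tet1, Tet2, Ep400, Chd7 and Smarca4. Of these, Kdm6a lies on the X chromosome, where regions were few. Wnt and TGF-beta signalling genes had 10 hosts of 24 (41.7%) and 44 regions, or 2.51 per 100 kb, led by the nuclear effectors Lef1 (18, of which 5 with H2A.Z AP3) and Tcf7l2 (6) and the inhibitory Smad6 (5). Axin1, Tcf7, Ctnnb1, Lrp6, Apc, Gsk3b, Smad2, Ski, Bmpr1a, Acvr1b and Tgfbr1 had none. Median gene length was 14.7 kb for the pluripotency, 55.3 kb for the chromatin and 62.9 kb for the signalling genes. Over all genes, 21.3% of those of 10 to 30 kb and 36.5% of those of 30 to 100 kb were hosts. Weighted to GC content, the ratio of regions found to the weighted number was 1.56 for developmental transcription factors and 1.63 for calcium channels, and 0.543 for long neuronal, 0.782 for pluripotency, 0.524 for chromatin and 0.712 for signalling genes. Chromosomes 6 and 8 hold several leading members, among them Sox5, Nfix, Cacna1c, Cacna2d4 and Tcf7l1. Without those chromosomes developmental transcription factors had 3.19 regions per 100 kb and a weighted ratio of 1.11. Calcium channels had 3.98 and 1.28, and all genes 1.84 and 0.856. All genes with H2A.Z WT and H3K27me3 at the promoter had 2.62 and 1.14. Over whole lists, H3K27me3 marked the promoters of 20 of 25 transcription factor, 18 of 24 channel and 18 of 25 long neuronal genes.

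Chromosomes 6, 8 and X stood apart. There were 39.5 intronic regions per Mb of eligible intron on chromosome 6 and 58.1 on chromosome 8. The other 17 autosomes ranged from 12.9 to 28.6, and the X chromosome, present once in male cells, had 0.941 with 37 regions. Weighted to GC content the ratios were 2.4, 1.81 and 0.139, compared with 0.739 to 1.08 for the remaining autosomes. H2A.Z AP3 overlapped 13.1% of the regions on chromosome 6 and 13.1% on chromosome 8, while elsewhere the share on autosomes was 6.06 to 9.61%. H3K27me3 went the other way, with 1.62% and 2.01% against 2.04 to 5.39%. The same chromosomes stood out at regions near starts, where H2A.Z AP3 overlapped 40.2% and 38.6% against 16.9 to 21.4%. Without chromosomes 6 and 8, 13982 regions remained, and H2A.Z AP3 overlapped 7.53% and H3K27me3 3.28% of them. The karyotype of the cells was not analysed here, and its part in these values was not tested.

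**Figure D5:**
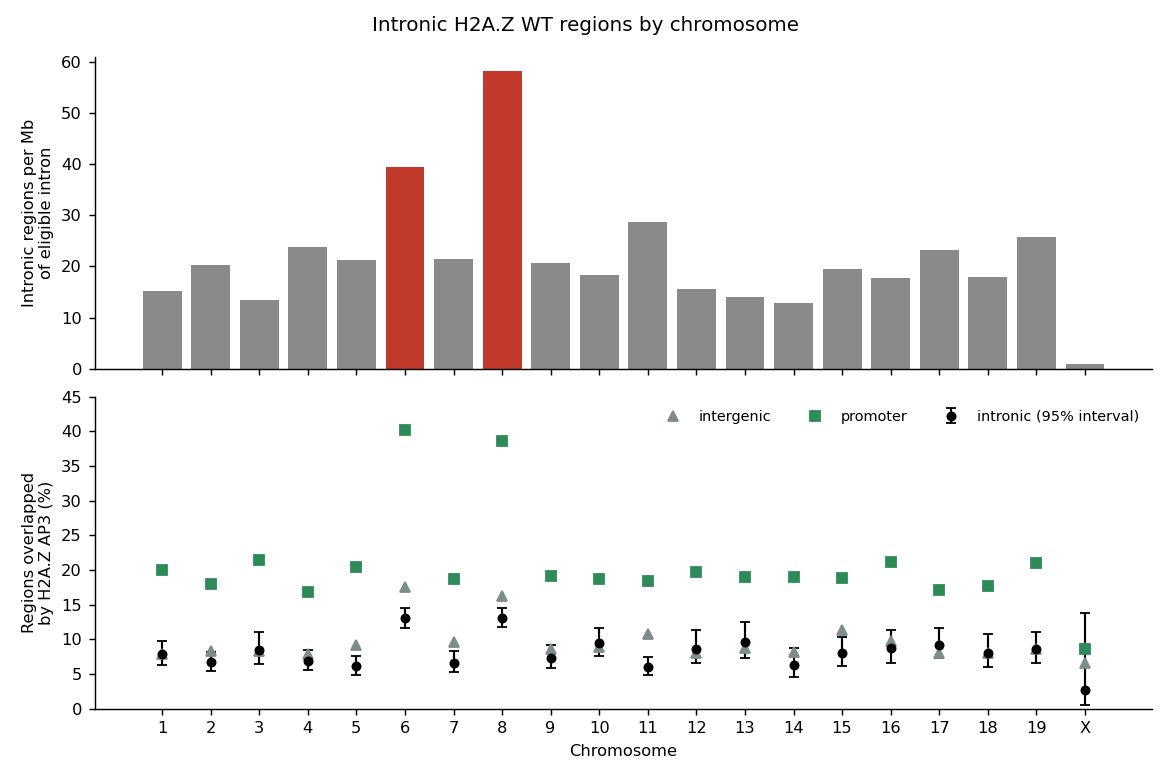
Top, intronic H2A.Z WT regions per Mb of eligible intron on each chromosome, with chromosomes 6 and 8 in red. Bottom, percent of intronic (black, with 95% Wilson intervals), distal intergenic (grey) and promoter (green) H2A.Z WT regions overlapped by H2A.Z AP3, where chromosomes 6 and 8 reach 13.1% for intronic regions.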

How the data were processed

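Of H2A.Z WT, of the AP3 mutant and of H3K27me3, 1 library each was sequenced. The authors aligned reads to mm9 with Bowtie 0.12.3, extended them to the fragment length, counted them in bins of 25 bp and called enriched bins with a Poisson model at a P threshold of 1e-9, with a minimal fold over input. The deposited values are the other kind of number, coordinates alone: the start and end of each region, with no score or depth. The 1e-9 lists were used, and the lists named 1e-12 served as an alternative.

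Regions were placed by midpoint with GENCODE vM1, in the shortest gene where genes overlap, and introns were numbered in the longest protein-coding transcript. Overlap meant at least 1 bp. Eligible bases, those that meet the position rule, were counted every 25 bp. Shares carry 95% Wilson intervals. Odds ratios were combined over 10 length strata by the Mantel-Haenszel method. For GC weighting, 250-bp windows were weighted by the rate of regions in classes of 5% GC. Named genes were the 5 longest regions, the 3 longest of each overlap class, the 5 hosts with most regions and the 5 densest, and in each list the 3 with most regions and those of 30 kb or more with none, apart from names not reported here. Members and lists were chosen with earlier results of these data known. Code was tested on simulated data (Python 3.11.15, NumPy 2.4.6, SciPy 1.17.1, pandas 2.3.3, Matplotlib 3.10.9).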

Additional observations from a re-analysis of the deposited data

Results flagged for a closer look

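The stricter lists hold places that the looser lists do not. Of 14908 intronic regions in the H2A.Z WT list at 1e-12, 1516 lay outside every region of the 1e-9 list, with a median length of 125 bp. The same was so for 429 of 1678 intronic H2A.Z AP3 regions and for 95 of 2085 intronic H3K27me3 regions, so the stricter lists are not subsets of the looser ones. Of 2508 intronic H2A.Z AP3 regions at 1e-9, 514 (20.5%) had no H2A.Z WT region within 1 kb, with a median length of 100 bp. The regions found only in the stricter lists enter none of the counts given for the 1e-9 lists, and the cause was not tested.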

How the results depend on the processing

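No paired analysis was possible because each group has 1 library, and for the same reason no replicate could be left out. Alternatives numbered 69 over 8 results. The number of regions ranged from 13982 to 17799, the first-intron fold from 1.09 to 1.2 and the odds ratio of H2A.Z AP3 in introns against intergenic sequence from 0.706 to 0.843, and all kept their direction. The first-intron fold was not weighted to GC content. The density fold stayed between 1.83 and 2.1, except that it reversed to 0.825 when weighted to GC content, an alternative chosen after seeing the data.

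The odds ratio of H2A.Z AP3 by H3K27me3 reversed to 0.743 with an overlap of at least 50%. Its interval left out 1 without chromosomes 6 and 8 (1.34), with neighbouring H2A.Z WT regions joined within 1 kb (1.41), with a region within 1 kb (1.4), with both other lists at 1e-12 (1.33, lower bound 1 after rounding), with no strata (2.34) and within strata of length and chromosome (1.33, chosen after seeing the data).

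The shares with H2A.Z AP3, with H3K27me3 and CpG rich moved with the settings. They were 10.2%, 3.17% and 6.9% with the H2A.Z WT list at 1e-12, 7.53%, 3.28% and 6.62% without chromosomes 6 and 8, 10.6%, 3.29% and 5.08% for regions of at least 100 bp, and 10.5%, 2.63% and 5.74% for joined regions. Beyond 5 kb from a start H3K27me3 fell to 1.86% and CpG-rich regions to 5.7%, and away from the starts of all transcripts H3K27me3 was 2.52%. H2A.Z AP3 and H3K27me3 were at 3.75% and 1.93% with an overlap of 50%, at 12.9% and 4.87% with a region within 1 kb and at 6.34% and 2.27% with their lists at 1e-12. A CpG-rich rule of 55% GC and a ratio of 0.65 gave 3.24%. The unknown depth of the libraries limits every share, since a deeper library passes a fixed threshold at more places.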
